A study of Mus musculus with 32 samples.

Results

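The comparison described here followed wild-type mouse retinal organoids from day 4 to day 6 of differentiation. Organoids of the Rx:GFP embryonic stem cell line (group WT, genotype WT) were profiled in 2 libraries at day 4 and 2 libraries at day 6, which are 4 of the 32 libraries of the series. The libraries were chosen by their labels, not by any measured value, and all 16276 genes that passed a filter on low values, of 55492 rows in the table, were compared. The line carries a fluorescent reporter of the Rx gene, now called Rax. Both WT groups grew in medium with AGN at 0.1 µM, and neither received dexamethasone (Dex). WT libraries of day 0 and day 2 are also given for the time course. Those of day 2 had AGN at 0.1 µM, while for day 0 none was listed. The other 3 kinds of culture at days 4 and 6, each with 2 libraries a group, were used to ask whether their change differed from that of WT: Rx:GFP cells with Mettl3 knocked out (KO), and the same KO cells with a WTMETTL3-GRBD fusion protein (WTMTL3-GRBD in the library titles) overexpressed, without Dex or with Dex at 10 µM. All of them also had AGN at 0.1 µM. The p-values rest on the spread between duplicates, pooled over all 32 libraries of the series, day 0 and day 2 included. The labels do not say whether duplicates came from separate cultures, so this spread may be technical. No clone of any line is named in the labels.

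The vertebrate eye begins as a single field of cells in the anterior neural plate that expresses Rax, Six3, Pax6 and Lhx2. The field then bulges outwards as paired optic vesicles, which are patterned into a future neural retina, a future pigment epithelium and, ventrally, the optic stalk. In culture, embryonic stem cells leave the naive state, pass through a formative state that resembles the early epiblast, become neuroepithelium and then form vesicles with these identities. Rax is a homeobox factor required to form the field, Six3 and Six6 are related homeobox factors of forebrain and eye, Lhx2 is a LIM homeobox factor needed for the optic vesicle to progress to an optic cup, and Vax1, Vax2 and Pax2 mark its ventral side and stalk.

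Between day 4 and day 6 most listed eye-field and forebrain factors rose, and most listed formative genes and epithelial adhesion and keratin genes went down. Values are FPKM, fragments normalised to transcript length and to the total of the library, as the authors computed them. Changes are differences in log2(FPKM + 1) between the 2 group means, and a gene was called when its limma adjusted p (Benjamini-Hochberg, two-sided) was under 0.05. By this rule 66.7% of the tested genes were called, 6788 higher at day 6 (41.7%) and 4074 lower (25.0%). Most changes were small, with a median size of 0.48 among called genes. A change of at least 1 was seen in 10.0% of genes, 1065 higher (6.54%) and 563 lower (3.46%). In 81.5% of genes the libraries of the 2 days did not overlap, so neither a call nor the lack of overlap sets a gene apart here, and the size of its change is the better guide. Counts of list members called below are to be read beside the 41.7% higher and 25.0% lower of all genes. The median change over all genes was 0.10. After median-of-ratios rescaling it was 0.00 and 51.1% of calls were higher, against 62.5% as deposited, so changes near 0.1 have no settled direction. The 4 libraries held about 37.7 M to 44.9 M fragments by the steps of their low values. The duplicates correlated across genes at Pearson r of 0.9946 at day 4 and 0.9929 at day 6, while libraries of different days correlated at 0.9521 to 0.9536.

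Genes of the eye field and optic vesicle rose far more than genes in general. Of 16 listed genes, all tested, 12 rose, Hesx1 and Otx2 fell, and Tbx2 and Tbx3 were not called. Of the list, 11 rose by at least 1, and its median change was 3.05, beside 0.10 over all genes. Six6 (ENSMUSG00000021099; GRCm38 chromosome 12, 72939892 to 72944899, plus strand) was at 0.33 and 0.21 FPKM in the day 4 libraries and at 70.3 and 69.0 FPKM in the day 6 libraries, a change of 5.80 ± 0.055 (SE, limma adjusted p = 1.51e-23). It was thus barely detected at day 4 and well expressed in both libraries of day 6. Lhx2 was at 14.4 and 13.0 FPKM at day 4 and at 240 and 228 FPKM at day 6, a fold of 17.1. Pax6, the paired-box factor of eye and forebrain, was at 5.96 and 4.19 FPKM and then at 111 and 109 FPKM, a fold of 21.7. Their day 4 level was already above that of Six6, and none of the day 4 libraries reached a day 6 value.

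Rax and Six3 had already risen by day 4 and changed less in this interval than Lhx2 and Pax6, which also belong to the field. Rax (ENSMUSG00000024518; GRCm38 chromosome 18, 65928277 to 65939787, minus strand) was at 30.7 and 31.5 FPKM at day 4 and at 122 and 115 FPKM at day 6, a fold of 3.80. The row of its eGFP reporter stood at 31.4 and 32.3 FPKM and then at 200.3 and 190 FPKM. Six3 went from 73.8 and 74.3 FPKM to 138 and 126 FPKM, a fold of 1.78 (change 0.82 ± 0.070 SE, limma adjusted p = 3.38e-09). Rax and Six3 had been at means of 0.205 and 0.10 FPKM at day 2, so on the log2 scale most of their rise from that level was present at day 4. Otx2, a homeobox factor of forebrain and midbrain, went the other way, from 193 and 199 FPKM to 105 and 104 FPKM. Hesx1, an early repressor of the anterior neural plate, showed a pulse over the WT time course, with means of 0.93 FPKM at day 0, 4.63 FPKM at day 2, 155 FPKM at day 4 and 13.9 FPKM at day 6. In a bulk sample fewer cells of a type and less RNA per cell cannot be told apart, here and below.

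Several factors of ventral and anterior identity rose, all but Pax2 almost from nothing. Vax1 was at 0.21 and 0.50 FPKM at day 4 and at 46.1 and 43.6 FPKM at day 6. Vax2 was at 0.30 and 0.27 FPKM and then at 54.3 and 52.9 FPKM, a change of 5.41 ± 0.14 (SE, limma adjusted p = 5.01e-17). Pax2, a paired-box factor of the optic stalk that also marks the midbrain and hindbrain boundary, was at 3.20 and 3.39 FPKM and then at 40.1 and 38.9 FPKM. Nr2e1, an orphan nuclear receptor of forebrain and retinal progenitors, was at 0.04 FPKM in both day 4 libraries and at 28.5 FPKM in both day 6 libraries. Mab21l1, needed for eye and lens growth, was at 0.05 FPKM in both and then at 37.7 and 38.1 FPKM. For all 5 genes the days were far apart relative to the spread of duplicates. Foxd1, which marks the temporal side of the retina, rose as well but stayed low, from 0.05 and 0.06 to 2.42 and 2.23 FPKM.

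**Figure D1:**
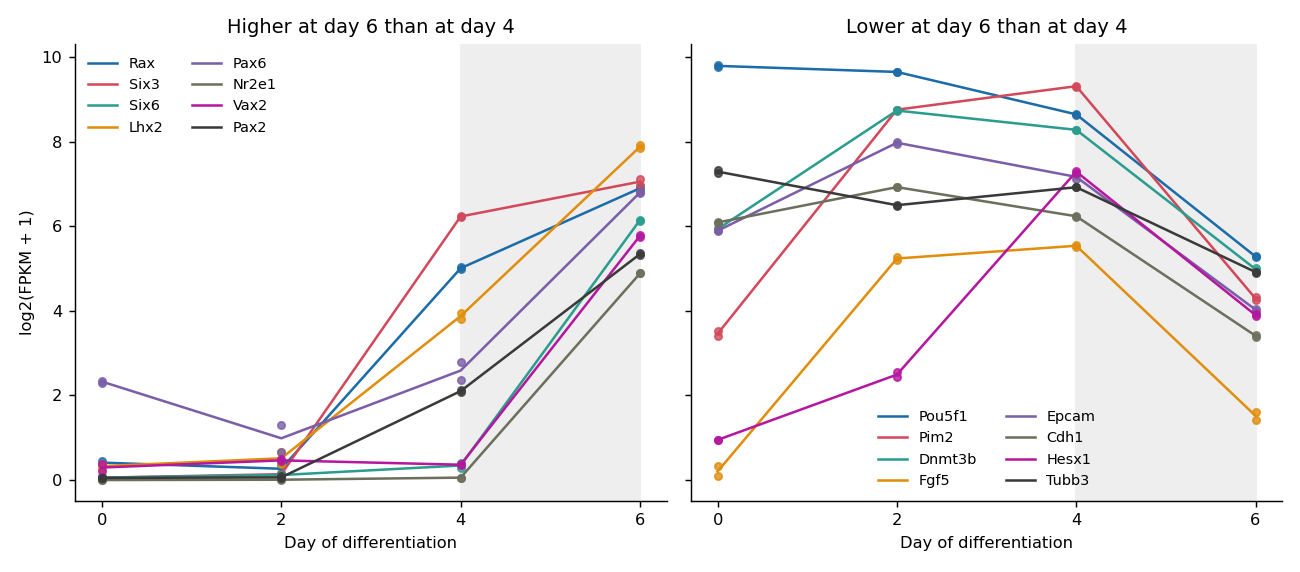
Level of 16 genes in the 8 WT libraries by day of differentiation, as log2(FPKM + 1); each point is a library, each line joins the mean of the 2 libraries per day, and the shaded interval is day 4 to day 6. The genes were chosen for the plot after their values were seen. On the left Six6, Nr2e1 and Vax2 lie near 0 until day 4, while Rax and Six3 had already risen; on the right Pou5f1 fell over the whole course, while Pim2, Fgf5, Hesx1 and Dnmt3b were higher at day 4 than at day 0.

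Markers of retinal subdivisions were present at unequal levels. All 13 tested genes of the neural retina progenitor list were called, beside 66.7% of all genes. Of these 11 were higher and 2 lower (median 1.67), while Vsx1 and Crb1 stayed at or under 0.50 FPKM and were not tested. Hes1, a Notch-responsive repressor that keeps progenitors dividing, went from 25.3 and 28.7 FPKM to 190 and 174 FPKM. Sfrp2, a secreted Wnt antagonist, went from 38.5 and 40.5 FPKM to 139 and 132 FPKM. Aldh1a3, a retinoic acid synthesising enzyme of the ventral retina, went from 0.03 and 0.09 FPKM to 12.1 and 12.2 FPKM. Fgf15 and Zic2 were the members that fell, by 0.48 and 0.89.

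Pigment and neuron markers were low. Of 12 listed pigment cell genes 7 were tested and 5 rose. Mitf, the master factor of pigment cells, was at 0.43 and 0.49 FPKM at day 4 and at 5.47 and 6.03 FPKM at day 6, and Dct, a melanin enzyme, at 0.04 and 0.02 FPKM and then at 4.06 and 3.90 FPKM. Tyr, Tyrp1, Slc45a2, Oca2 and Gpr143, the late pigment genes of the list, did not exceed 0.19 FPKM in any of the 4 libraries. Of 10 genes of differentiated retinal neurons, Atoh7, Nrl, Rcvrn, Ptf1a and Arr3 did not exceed 0.28 FPKM. Of the 5 tested, 1 rose and 2 fell. Prox1, a homeobox factor of horizontal cells, rose from 0.34 and 0.32 FPKM to 3.75 and 3.85 FPKM. Rbpms, which marks ganglion cells but is expressed in stem cells too, fell from 153 FPKM in both libraries to 41.7 and 38.6 FPKM. Its mean was 115 FPKM in WT stem cells at day 0. Field and vesicle markers of the labelled tissue were thus present, and the listed markers of late pigment cells and photoreceptors were near 0.

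Forebrain genes rose beside those of the eye, and genes of more posterior territories stayed low. Of 11 tested genes of telencephalon and anterior forebrain 8 rose and 1 fell (median 1.62). Dmrta2, a zinc finger factor of the cortical primordium, went from 2.39 and 2.55 FPKM to 80.8 and 77.4 FPKM, a fold of 32. Emx2 went from 2.02 and 1.27 FPKM to 13.6 and 18.3 FPKM. Lhx5, an early forebrain LIM homeobox factor, fell from 40.5 and 41.5 FPKM to 12.7 and 13.6 FPKM. Nkx2-1, which marks the ventral forebrain, stayed at or under 0.86 FPKM. In the midbrain and hindbrain list, 8 of 15 tested genes rose and Irx5 fell, with a median of 0.26. The fall of Irx5 (-0.25) was not called without the second day 4 library (-0.18), without the first day 6 library (-0.12) or in a fit of the compared groups alone. Apart from Pax2, no member of that list exceeded 5 FPKM at either day, and Hoxb1 and Hoxb2 were at 0 in all 4 libraries.

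Lists for neighbouring ectoderm and for other germ layers gave mixed counts at low levels. Over all genes 41.7% were called higher and 25.0% lower. In the neural crest and neural border list 6 of 12 genes rose and 4 fell (median 0.19, and 0.10 without the second day 4 library). Foxd3, a factor of both crest and formative pluripotency, fell from 4.66 and 4.24 FPKM to 0.94 and 0.76 FPKM, and Twist1 from 5.47 and 5.09 FPKM to 1.73 and 1.41 FPKM. In the surface ectoderm and placode list 8 of 12 tested genes rose and 2 fell (median 0.43). Eya2, a transcriptional cofactor, was the only member to rise by at least 1, from 2.63 and 2.73 FPKM to 33.5 and 30.9 FPKM. Another 1 fell by at least 1. Trp63, Krt5 and Krt14, which define epidermis, did not exceed 0.05 FPKM. In the mesendoderm list 4 of 8 tested genes rose and 2 fell (median 0.17). Eomes fell from 9.80 and 9.79 FPKM to 0.84 and 1.14 FPKM, and brachyury (T) did not exceed 0.58 FPKM.

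General neural progenitor genes rose together. Of 15 genes 13 rose, 1 fell and 1 was not called (median 1.00). Sox1, an early factor of committed neuroectoderm, went from 5.56 and 5.73 FPKM to 47.2 and 45.7 FPKM, a fold of 8.23, and Sox21 from 1.05 and 1.01 FPKM to 25.3 and 24.6 FPKM. Sox3 reached 179 and 172 FPKM from 36.4 and 38.1 FPKM, and Cdh2, which encodes N-cadherin, 108 and 107 FPKM from 26.2 FPKM in both libraries. Vim, an intermediate filament gene of neuroepithelium, rose by 1.14. The rises of this list were smaller than those of the eye-field list in median, and its members were already expressed at day 4.

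Genes of differentiating neurons did not follow the progenitor genes. Of 18 genes in the neurogenesis list 7 rose, 7 fell and 4 were not called, and the members with high levels fell. Tubb3, a neuronal tubulin, was at 121 and 120 FPKM at day 4 and at 29.5 and 28.9 FPKM at day 6 (change -2.01 ± 0.028 SE, limma adjusted p = 4.70e-21). Stmn2, a microtubule regulator of growing axons, fell from 68.8 and 64.8 FPKM to 12.0 and 10.6 FPKM. Elavl3, an RNA-binding protein of neurons, fell from 10.9 and 11 FPKM to 1.36 and 1.25 FPKM. Neurog2 and Insm1, transcription factors of neuron precursors, fell by 2.62 and 1.84. Both Tubb3 and Stmn2 thus dropped below their day 4 level in each library by more than the spread of duplicates. The members that rose did not exceed 5.41 FPKM (Map2, a dendrite protein). Tubb3 was not new at day 4, since its mean was 156 FPKM in WT stem cells at day 0 and 89.3 FPKM at day 2.

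Most formative genes fell. Of 12 genes 10 fell and 2 rose, with a median of -1.24. Pim2, a serine/threonine kinase gene (ENSMUSG00000031155; GRCm38 chromosome X, 7878262 to 7883432, plus strand), was at 640 and 627 FPKM at day 4 and at 18.1 and 19.0 FPKM at day 6, a 34.1-fold lower level (change -5.02 ± 0.043 SE, limma adjusted p = 4.66e-24). It was the largest fall by the naming rule. Fgf5, the growth factor that marks the formative epiblast, fell from 44.7 and 46.2 FPKM to 2.06 and 1.68 FPKM, and Pou3f1, a POU factor of epiblast and early neuroectoderm, from 68.9 and 70.0 FPKM to 4.67 and 4.19 FPKM. Dnmt3b, a de novo DNA methyltransferase, fell from 309 and 310 FPKM to 30.0 and 31.3 FPKM, while Dnmt3a fell by 0.29 only. Sall2, a zinc finger factor with roles in eye development, rose from 39.9 and 39.4 FPKM to 80.5 and 81.5 FPKM. The other rise, of Sox12, was 0.13 as deposited and -0.003 after rescaling. It was not called without either day 4 library (0.12 and 0.14) or without the first day 6 library (0.10).

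Core and naive pluripotency genes fell less in median. Of 20 genes 14 fell, 3 rose and 3 were not called (median -0.35), and 3 fell by at least 1. Pou5f1, the core factor Oct4, was at 396 and 401 FPKM at day 4 and at 37.6 and 38.2 FPKM at day 6, a 10.5-fold lower level. Utf1 fell from 321 FPKM in both libraries to 38.4 and 35.2 FPKM, and L1td1 from 119 FPKM in both to 16.1 and 18.9 FPKM. Nanog was low at both days, at 12.5 and 13.9 FPKM and then at 9.44 and 9.89 FPKM, and had been at a mean of 177 FPKM at day 0. Sox2, which pluripotent cells and neural progenitors share, was at 180 and 183 FPKM and then at 197 and 196 FPKM, a change of 0.11 as deposited and -0.03 after rescaling. It was not called without the first day 4 library (0.10) or without either day 6 library (0.11 in both cases). Klf2, a naive factor, had likewise been at a mean of 178 FPKM at day 0 and was at 17.2 and 15.95 FPKM and then at 12.4 and 11.3 FPKM.

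**Figure D2:**
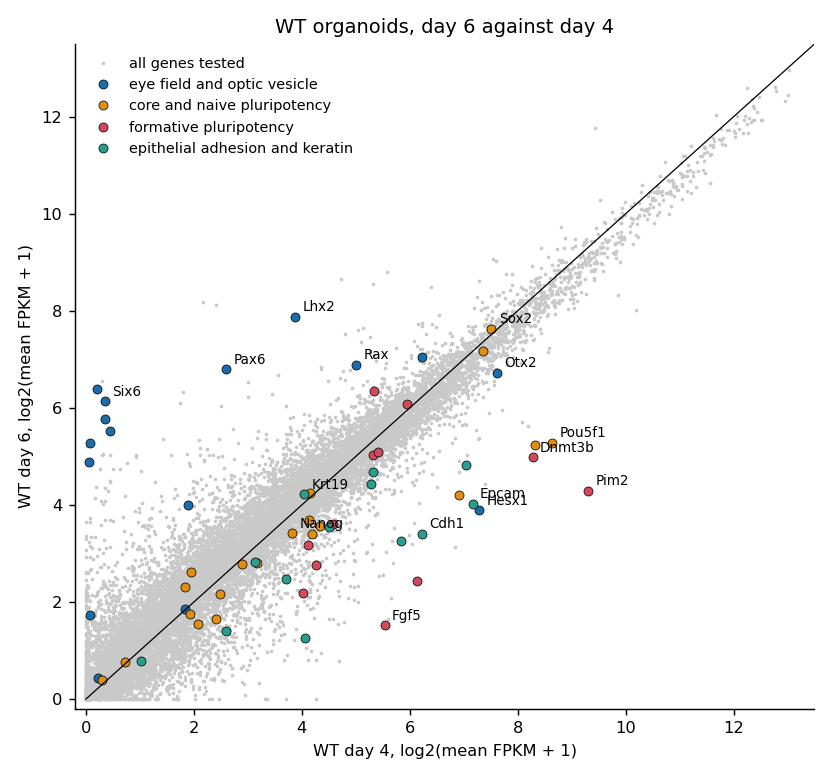
Mean level of each tested gene at day 6 (vertical axis) against day 4 (horizontal axis) in WT organoids, both as log2(mean FPKM + 1), with 4 gene lists coloured and the line of equal level drawn. Eye-field genes lie above the line except Otx2 and Hesx1 among those named, and Pim2, Fgf5, Pou5f1, Dnmt3b, Epcam and Cdh1 lie far below it, while Sox2 and Krt19 lie on or near it.

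The epithelial genes shared with epiblast and surface epithelium fell together. Of 13 tested genes in the epithelial adhesion and keratin list 12 fell, none rose, Krt19 was not called (change 0.17) and the median was -1.19. These counts were the same after rescaling. Cdh1, which encodes E-cadherin, was at 75.0 and 73.6 FPKM at day 4 and at 9.77 and 9.48 FPKM at day 6, a 7.72-fold lower level, over the interval in which Cdh2 became 4.10-fold higher. Epcam, an epithelial adhesion molecule, fell from 138 and 148 FPKM to 15.6 and 15.0 FPKM (change -3.14 ± 0.064 SE, limma adjusted p = 1.42e-18). Esrp1, a splicing regulator of epithelial cells, fell from 15.6 and 15.9 FPKM to 1.30 and 1.45 FPKM. The tight-junction claudins Cldn6 and Cldn7 fell to 27.7 and 26.7 FPKM and to 8.94 and 8.32 FPKM, from 132 and 130 FPKM and from 57.2 and 56.0 FPKM. Keratins fell less, with Krt8 from 38.2 and 38 FPKM to 21.1 and 19.8 FPKM. The days did not overlap for any of the 12 genes that fell, nor did they for 81.5% of all genes tested.

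Most of the promoters found for these genes held a short sequence that the comparison did not use. The E-box CAGGTG, or CACCTG on the other strand, is the sequence that repressors of epithelial genes of the Snail and Zeb families are known to bind. It was looked for in RefSeq promoters (GRCm38.p6), windows of 300 bases of which 250 lie before the start site. Of 15 listed epithelial genes 9 matched an entry, with 11 promoters, and 9 of the 11 promoters, belonging to 8 of the 9 genes, held the motif on either strand. Over all 32851 promoters of that length the share was 20.2%. Jup, which fell by 0.98, had a promoter without it, while Dsp and Tjp3, with changes of only -0.23 and -0.31, had it. Cdh1, Cdh3 and Esrp1 matched no entry and were not examined. The motif and the list were chosen with the values in view, no test was run, and a match describes letters in a window, not a site in use. The 4 promoters shown are of genes that fell by different amounts (Epcam by 3.14, Cldn6 by 2.22, Cldn4 by 1.22 and Krt8 by 0.87), 5′ to 3′ on the strand of the gene, with each match in capitals.
Epcam, chr17:87635729-87636028, plus strand: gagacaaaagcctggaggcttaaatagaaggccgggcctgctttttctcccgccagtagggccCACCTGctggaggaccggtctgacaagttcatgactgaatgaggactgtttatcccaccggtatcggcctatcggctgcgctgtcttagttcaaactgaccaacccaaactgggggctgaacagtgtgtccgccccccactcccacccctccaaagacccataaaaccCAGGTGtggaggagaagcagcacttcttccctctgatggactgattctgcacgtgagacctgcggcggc
Cldn6, chr17:23679115-23679414, plus strand: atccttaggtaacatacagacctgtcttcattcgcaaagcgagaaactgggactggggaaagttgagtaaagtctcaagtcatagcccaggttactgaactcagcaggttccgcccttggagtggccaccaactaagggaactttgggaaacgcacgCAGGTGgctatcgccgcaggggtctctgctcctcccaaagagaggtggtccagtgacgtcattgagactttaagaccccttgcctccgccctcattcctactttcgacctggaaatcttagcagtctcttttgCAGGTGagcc
Cldn4, chr5:134946885-134947184, minus strand: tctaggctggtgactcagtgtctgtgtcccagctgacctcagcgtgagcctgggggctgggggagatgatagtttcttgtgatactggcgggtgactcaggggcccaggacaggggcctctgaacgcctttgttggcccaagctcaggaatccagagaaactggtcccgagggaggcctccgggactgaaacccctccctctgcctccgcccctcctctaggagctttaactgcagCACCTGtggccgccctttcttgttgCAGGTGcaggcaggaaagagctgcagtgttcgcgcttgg
Krt8, chr15:102004293-102004592, minus strand: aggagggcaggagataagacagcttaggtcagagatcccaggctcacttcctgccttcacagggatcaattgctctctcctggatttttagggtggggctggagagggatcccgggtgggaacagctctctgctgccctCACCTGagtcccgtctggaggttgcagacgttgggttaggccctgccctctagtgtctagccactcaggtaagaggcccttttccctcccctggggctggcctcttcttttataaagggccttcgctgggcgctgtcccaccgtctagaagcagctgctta
Epcam, Cldn6 and Cldn4 held 2 matches each and Krt8 held 1. Counted from the start site, the first base of a match lay at -187 and -19 in Epcam, at -93 and 40 in Cldn6, at -14 and 11 in Cldn4 and at -111 in Krt8. A second motif, the homeobox core TAATTA, was looked for in the same way in the eye-field genes, of which 10 of 16 matched an entry. It was found in 2 of 15 promoters, both of Otx2, and in 5.3% of all promoters.

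Basement membrane genes, which encode the matrix under an epithelium, moved up. Of 12 genes 8 rose and 2 fell (median 0.68). Col4a1 went from 51.8 and 54.0 FPKM to 147 and 151 FPKM, Lamb1 from 32.2 and 33.6 FPKM to 66.7 and 68.3 FPKM, and Sparc, a matrix-binding protein, from 151 and 149 FPKM to 314 and 311 FPKM. Most listed markers of extraembryonic endoderm, a cell type that secretes much of this matrix, also rose, with a smaller median (0.39). Of its 17 tested genes 11 rose and 2 fell (8 and 3 after rescaling), while Cubn, Apoa1, Apom and Hnf4a were not called. Only 2 rose by at least 1. The summed level of the list was 120 and 123 FPKM at day 4 and 187 and 184 FPKM at day 6. Among its defining genes Sox17 went from 10.0 and 10.7 FPKM to 20.9 and 20.1 FPKM and Gata4 from 5.95 and 5.91 FPKM to 9.79 and 10.2 FPKM. None of the list was at 0 in all 4 libraries, and the part of these cells in the matrix genes was not tested. Lama1, which this list and its summed level hold, rose from 15.7 and 17.1 FPKM to 41.5 and 39.8 FPKM.

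Blood and vessel genes were low except Kdr. Of 12 listed genes 6 were tested, of which 2 rose and 3 fell. At day 4 the most abundant was Cd68, a macrophage marker, at 4.26 and 5.35 FPKM, and it fell to 3.32 and 3.01 FPKM. Kdr, a receptor for vascular endothelial growth factor, was at 0.03 and 0.09 FPKM at day 4 and at 11.7 and 11.4 FPKM at day 6. Other endothelial genes did not move to such a level: Cdh5 did not exceed 0.33 FPKM, Tie1 did not exceed 0.01 FPKM and Pecam1 was between 1.32 and 1.37 FPKM. Vegfa, which encodes a ligand of Kdr, rose from 19.2 and 20.02 FPKM to 50.7 and 53.9 FPKM.

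Signalling genes were described from the secreted ligand to its targets. In the Wnt list 14 of 17 genes rose, 1 fell and 2 were not called (median 1.06). The ligand genes Wnt7b and Wnt8b went from 0.63 and 0.69 FPKM to 17.4 and 16.8 FPKM and from 0.24 and 0.48 FPKM to 7.96 and 7.70 FPKM. The receptor gene Fzd1 went from 4.36 and 4.52 FPKM to 31.0 and 30.4 FPKM, while Fzd5, the frizzled receptor of the eye field, rose by 0.23 from 35.3 and 36.2 FPKM. The target and feedback genes Axin2, Sp5 and Nkd1 rose by 1.06, 1.68 and 1.47, and Axin2 reached 6.06 and 5.92 FPKM.

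Hedgehog genes rose in 9 of 10 tested cases (median 1.11). Shh itself did not exceed 0.31 FPKM and was not tested, and the related ligand gene Ihh went from 1.71 and 1.55 FPKM to 4.80 and 4.94 FPKM. The coreceptor genes Boc, Cdon and Gas1 rose by 1.99, 1.07 and 1.39, and the effector genes Gli2 and Gli3 by 1.29 and 1.46. Among targets Gli1 went from 1.24 and 1.73 FPKM to 3.65 and 3.73 FPKM and Ptch1 rose by 0.86.

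BMP genes gave 9 rises and 2 falls among 14 genes (median 0.46). Bmp4, the dorsal ligand of the optic vesicle, was not called, with 9.04 and 12.8 FPKM and then 15.8 and 13.3 FPKM. The antagonist genes Fst, Grem1 and Nog rose by 2.31, 1.42 and 1.46, and Fst went from 3.59 and 4.21 FPKM to 22.1 and 24.3 FPKM. The Id genes, which encode inhibitors of helix-loop-helix factors and respond to BMP, did not move together. Id1 fell from 205 and 211 FPKM to 61.0 and 61.9 FPKM, Id2 rose from 26.5 and 27.3 FPKM to 96.2 and 93.6 FPKM, and Id3 was not called.

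In the list of FGF ligands and of genes that dampen ERK signalling 8 of 14 genes rose and 3 fell (median 0.24, with 6 and 5 after rescaling). The median was 0.16 without the second day 6 library. The ligand gene Fgf5, given above among formative genes, is not in that list. Fgf13, whose product stays inside the cell, rose from 3.24 and 3.37 FPKM to 30.3 and 33.4 FPKM, and Fgf9, a retina ligand, from 0.78 and 0.49 FPKM to 2.88 and 2.95 FPKM. The receptor genes Fgfr1 and Fgfr2 fell by 0.85 and 0.53, and Spry4, a feedback inhibitor, fell by 1.24. In the Notch list 7 of 13 tested genes rose and 3 fell (median 0.45), beside 41.7% and 25.0% of all genes. The ligand gene Dll1 went from 3.88 and 4.15 FPKM to 17.7 and 18.2 FPKM, the target gene Nrarp from 3.67 and 3.45 FPKM to 28.5 and 29.3 FPKM, and Dll3 fell from 10.6 and 10.5 FPKM to 2.67 and 3.15 FPKM.

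Retinoic acid genes rose in 9 of 11 tested cases (median 0.81). Crabp1, a cytosolic binding protein for retinoic acid, went from 47.5 and 45.6 FPKM to 450 and 435 FPKM, a fold of 9.50 by the group means. The synthesising enzyme gene Aldh1a1, which marks the dorsal retina, went from 0.02 and 0.01 FPKM to 2.53 and 2.65 FPKM. The receptor genes did not share a direction, since Rarg fell from 35.0 and 35.6 FPKM to 6.8 and 7.22 FPKM and Rara rose by 0.32. The degrading enzyme gene Cyp26a1 went from 8.93 and 9.12 FPKM to 11.5 and 10.8 FPKM. Its change of 0.28 was called, but not after rescaling (0.15), with a pseudocount of 0.1 (0.30) nor without either day 4 library (0.26 and 0.29) or the first day 6 library (0.24). Medium of both days held AGN, and the response to it was not tested here.

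Among imprinted genes, which are read from the copy of 1 parent, 12 of 17 rose and 5 fell (median 0.60). Dlk1, a Notch-like inhibitor of differentiation (ENSMUSG00000040856; GRCm38 chromosome 12, 109452823 to 109463336, plus strand), was at 3.40 and 3.62 FPKM at day 4 and at 295 and 284 FPKM at day 6, an 82.4-fold higher level (change 6.01 ± 0.12 SE, limma adjusted p = 1.12e-18). The noncoding RNA genes of the same imprinted domain did not rise with it. Meg3 went from 888 and 897 FPKM to 665 and 666 FPKM, and Mirg and Rian fell by 0.78 and 0.13. Mest rose from 666 and 710 FPKM to 3439 and 3509 FPKM, Cdkn1c, a cell cycle inhibitor, from 18.2 and 20.9 FPKM to 112 and 110.0 FPKM, and Plagl1 from 0.28 and 0.80 FPKM to 26.1 and 25.6 FPKM. Snrpn and Grb10 fell, Snrpn from 269 and 270 FPKM to 51.8 and 50.6 FPKM.

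The Lin28 and let-7 list, whose members help to time development, split as well, with 4 of 10 genes higher and 3 lower. Lin28a, high in stem cells, fell from 271 and 274 FPKM to 165 and 166 FPKM, and its paralog Lin28b rose from 14.1 and 13.9 FPKM to 45.6 and 44.8 FPKM. Hmga2, a chromatin protein and let-7 target, rose from 19.3 and 19.7 FPKM to 113 and 115 FPKM. In a list of 8 other genes of DNA methylation and its removal, which leaves out the methyltransferase gene Dnmt3b given above among formative genes, 5 rose and 2 fell (median 0.35, and 0.22 after rescaling), with Tet3 at 3.73 and 3.63 FPKM and then at 8.42 and 8.68 FPKM. Of 15 genes of the m6A machinery, which writes, reads and removes N6-methyladenosine on RNA, 10 rose and 2 fell, and all changes were under 0.5. Mettl3, the catalytic subunit, was not called, at 32.5 and 34.5 FPKM and then at 36.3 and 35.1 FPKM.

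Most listed metabolic and stress genes fell. In the glycolysis and hypoxia list 17 of 24 genes fell and 4 rose (median -0.47). Ldha, which makes lactate, fell from 3019 and 3010 FPKM to 1598 FPKM in both libraries, Slc2a1, the main glucose transporter, from 529 and 527 FPKM to 267 and 262 FPKM, and Gapdh from 7916 and 7926 FPKM to 5139 and 5050 FPKM. The 4 genes that rose were Vegfa, Kdm3a, P4ha1 and Pdk1. In the cholesterol and fatty acid list 13 of 22 genes fell and 3 rose (median -0.29), with Fdps from 238 and 241 FPKM to 133 and 131 FPKM. All 14 tested genes of the integrated stress response fell (median -0.63), beside 25.0% of all genes. Its effector gene Atf4 went from 127 and 131 FPKM to 78.0 and 81.0 FPKM and its targets Chac1 and Trib3 fell by 1.98 and 1.72. Of 13 p53 target genes 9 fell and 2 rose (median -0.37). The largest of these falls was Pmaip1, a death-promoting gene, from 24.8 and 25.0 FPKM to 3.21 and 3.50 FPKM, while Sesn1 rose by 0.55.

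Cell cycle genes showed no common shift beyond that of all genes. Of 20 DNA replication genes 10 rose and 5 fell as deposited (median 0.06), and 5 rose and 10 fell after rescaling. Of 18 mitosis genes 11 rose and 4 fell (median 0.15), with 8 and 5 after rescaling. Among cyclins D and E and inhibitors of their kinases, 6 of 11 rose and 3 fell. Ccnd2 stood out in size, from 4.89 and 4.45 FPKM to 65.8 and 64.1 FPKM, as did the inhibitor gene Cdkn2c, from 0.68 and 0.66 FPKM to 8.06 and 6.92 FPKM. Of 13 genes of the mitochondrial genome 2 rose and none fell as deposited, while 9 fell after rescaling, and of 11 tested immediate early genes 3 rose and 3 fell.

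**Figure D3:**
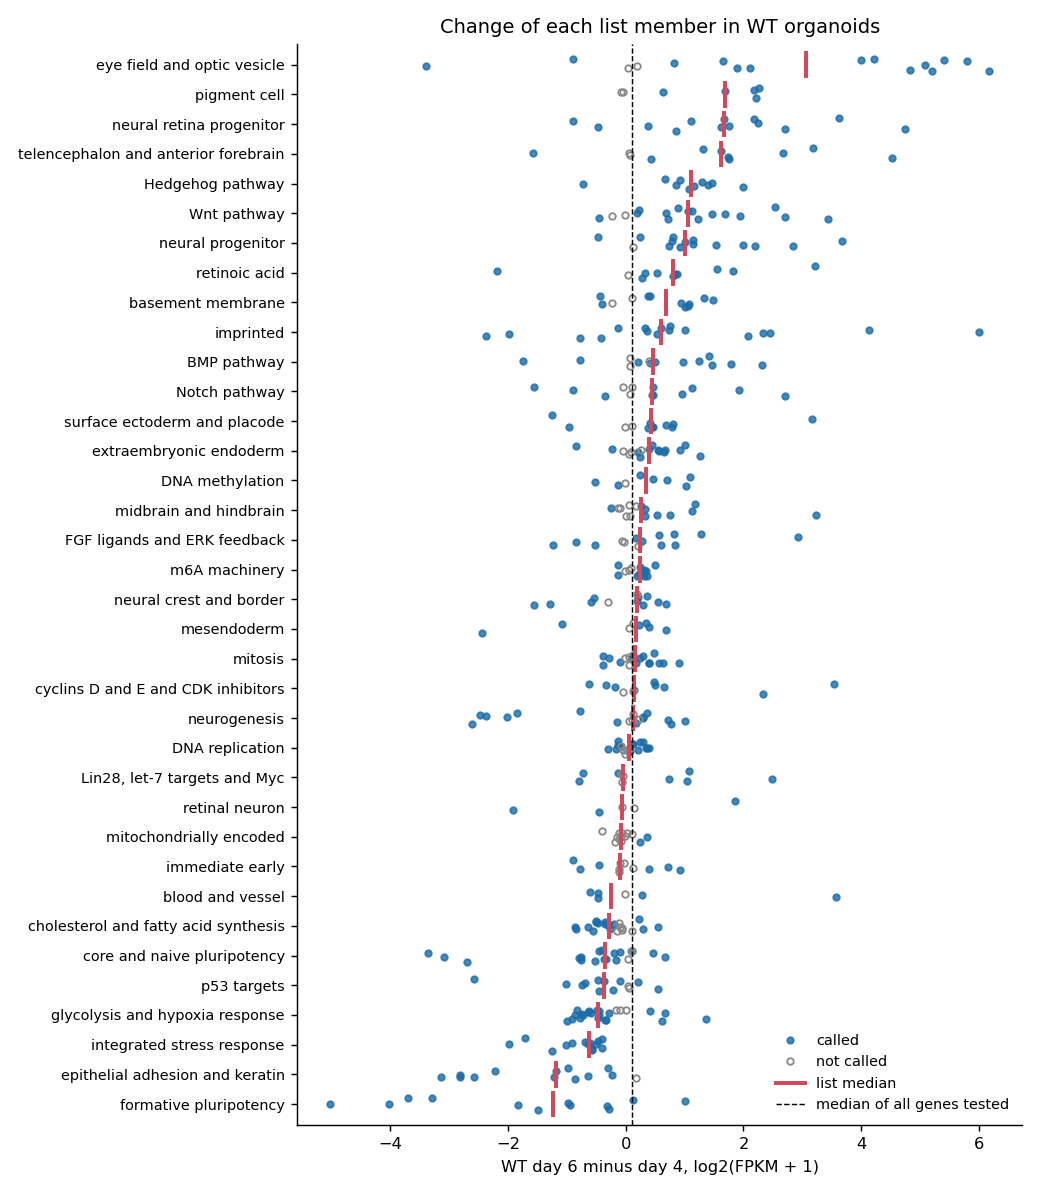
Change from day 4 to day 6 in WT organoids, on the log2(FPKM + 1) scale, of each tested member of the 36 gene lists, ordered by list median; filled points were called, open points were not, red bars are list medians, and the dashed line is the median of all genes (0.10). The eye-field list has the highest median (3.05) and the formative and epithelial lists the lowest (-1.24 and -1.19).

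Among the largest rises over all genes were several genes for transcription factors. By the naming rule 9 of the 10 largest rises were those of Nr2f1 (6.26), Dlk1 (6.01), Six6 (5.80), Igfbp5 (5.72), Vax2 (5.41), Mab21l1 (5.21), Cp (5.19), Vax1 (5.09) and Nr2e1 (4.83). Nr2f1, an orphan nuclear receptor of the retina and cortex (GRCm38 chromosome 13, 78188973 to 78199757, minus strand), was at 0.27 and 0.19 FPKM at day 4 and at 95.0 and 91.9 FPKM at day 6. Igfbp5, which binds insulin-like growth factors, was at 4.09 and 4.50 FPKM and then at 275 and 281 FPKM, and Cp, the copper protein ceruloplasmin, at 0.02 and 0.01 FPKM and then at 36.7 and 35.7 FPKM. The 10 largest falls were Pim2 (-5.02), Fgf5 (-4.02), Foxd4 (-3.95), Vrtn (-3.91), Bc1 (-3.71), Foxh1 (-3.70), Pou3f1 (-3.70), Calca (-3.58), Rab25 (-3.46) and Hesx1 (-3.39). Foxh1, the forkhead partner of Nodal signalling, fell from 113 FPKM in both libraries to 8.18 and 7.40 FPKM. Bc1, a short noncoding RNA gene, was at 11.1 and 13.1 FPKM and was listed at 0 in both day 6 libraries, with a large error (SE 0.92, limma adjusted p = 0.00155), and short genes are poorly measured by FPKM.

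A set of genes crossed from under 1 FPKM in both day 4 libraries to at least 10 FPKM in both day 6 libraries. There were 34 of them, 31 protein coding, and 6 crossed the other way. Beside those already named, the rises included Meis1, Nr2f2, Zic1, Hmx1, Lmo3 and Zfp503, all transcription regulators, with Zic1 going from 0.37 and 0.11 FPKM to 34.0 and 30.2 FPKM. The long noncoding RNA gene Gm26709 (GRCm38 chromosome 12, 72945807 to 72965931, plus strand) begins just after the end of Six6 on the same strand and rose with it, from 0.13 and 0.11 FPKM to 17.0 and 16.4 FPKM. Rmst, another noncoding RNA gene, differed between the day 6 duplicates, at 11.4 and 27.9 FPKM. The 6 genes that crossed downwards were Rab25, Thy1, Lmx1b, Rln3, Vrtn and Bc1. Lmx1b, a LIM homeobox factor of midbrain and eye mesenchyme, had risen before, with means of 1.27 FPKM at day 2 and 19.4 FPKM at day 4, and was at 0.96 and 0.93 FPKM at day 6. Thy1 was at 15.9 and 16.7 FPKM and then at 0.97 and 0.52 FPKM.

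The change over these days was then set against that of the other cultures, with the difference of the 2 changes as the test. These tests share the WT libraries with each other. KO here means the libraries labelled KO, since Mettl3 mRNA was at a mean of 36.6 FPKM in KO at day 4 and 37.6 FPKM at day 6 and so did not check the label. Within each culture, day 6 differed from day 4 for 65.3% of genes in KO, 65.1% in the fusion line with Dex and 67.9% without Dex. The WT change differed from the KO change for 48.0% of genes, and for 5.62% by at least 1. The share was 52.0% against the fusion line with Dex and 47.5% against the fusion line without Dex, and 5.38% and 5.32% differed by at least 1. The WT change was above that of the fusion line with Dex in 29.1% of genes and below it in 23.0%, and for the line without Dex the shares were 31.3% and 16.2%. Against KO the WT change was the higher in 4962 genes (30.5%) and the lower in 2846 genes (17.5%). After rescaling 44.8% of these calls were in the higher direction, against 63.6% as deposited, so this split has no settled direction.

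The eye-field rise was larger in WT than in KO for most of its genes. The difference was called for 15 of 16 genes, with WT above in 12 and below in 3, and the list median of the change was 3.05 in WT, 0.36 in KO, 2.14 in the fusion line with Dex and 0.02 without Dex. Six6 was at a mean of 0.02 FPKM in KO at both days, so its difference of 5.80 ± 0.078 (SE, limma adjusted p = 1.67e-20) was the whole WT change. Rax and Six3 rose in WT and fell in KO, from means of 1.21 to 0.30 FPKM and 7.13 to 0.635 FPKM. Pax6 and Mab21l1 rose in both, with Pax6 in KO going from a mean of 8.91 FPKM to 112 FPKM and a difference of 0.70. Among the largest differences in favour of WT were also Dlk1 (6.96), Pax2 (5.49) and Vax2 (5.32). Dlk1 fell in KO from 4.21 to 1.70 FPKM, and in the fusion line with Dex it was at means of 2.36 and 3.47 FPKM.

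Neurogenesis genes differed in the other direction. The WT change was below the KO change in 16 of 18 genes and above it in 1, with list medians of 0.11 in WT and 1.39 in KO. Tubb3 fell in WT and rose in KO from a mean of 130 FPKM to 266 FPKM, a difference of -3.03, and Insm1 rose in KO from 1.4 FPKM to 16.2 FPKM, a difference of -4.68 ± 0.093 (SE, limma adjusted p = 5.01e-18). Neural crest and border genes gave WT below KO in 11 of 12 genes, and Msx1 went from 4.57 FPKM to 53.5 FPKM in KO. In the epithelial list the WT change was above the KO change in 11 of 13 tested genes and below it in none. The list median was -1.19 in WT and -2.16 in KO, where Cldn6 went from 112 FPKM to 1.67 FPKM. The most negative differences beside Insm1 were those of Wfdc1 (-5.14), Fzd10os (-4.23), Vtn (-4.00) and Fzd10 (-3.93). Wfdc1 went from 0.495 FPKM to 94.6 FPKM in KO, and from 0.57 and 0.48 FPKM to 1.57 and 2.00 FPKM in WT. Fzd10os lies beside Fzd10 on the other strand without overlap, and whether counting used strand is not given in the sources used here. The value of Fzd10os is uncertain (SE 0.55), since its WT day 4 duplicates were at 0.02 and 1.51 FPKM.

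**Figure D4:**
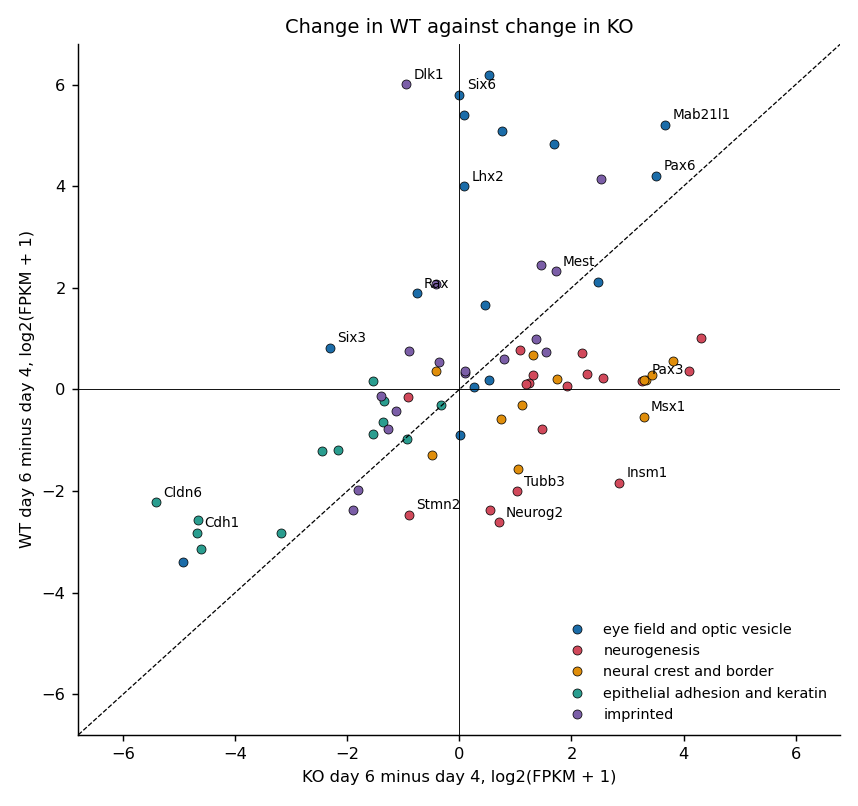
Change from day 4 to day 6 in WT organoids (vertical axis) against the change in KO organoids (horizontal axis), both on the log2(FPKM + 1) scale, for the tested genes of 5 lists; the dashed line marks equal changes. Six6 and Dlk1 lie high above the line, Pax6 lies near it on the right, and Insm1, Tubb3 and Msx1 lie below it.

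Changes were also summarised by chromosome. Chromosome 8 was picked because earlier results of these data showed it moving in WT, and no test was run. The median WT change of the 858 tested genes of chromosome 8 was 0.02, which is 0.08 below that of all other chromosomes. The same difference for each of the other chromosomes lay between -0.05 and 0.08, so chromosome 3 (0.08) was as far off. The chromosome 8 value moved by more than its spread between library pairs in all 5 alternatives run for it, without turning. Cdh1, Sox1, Tubb3, Col4a1 and Wfdc1 lie on chromosome 8, and their changes were far larger than that shift.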

How the data were processed

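RNA-seq was made from polyadenylated RNA of organoids, and 1 table of gene-level FPKM values, as deposited by the authors, was used. Per the submitters' processing notes STAR, Cuffdiff and the genome build mm10 were used, with versions and settings not given in the sources used here. FPKM keeps no read counts, so no count test was run. Low values are multiples of what 1 fragment is worth, and the depth per library that made most of them whole (87.2% to 91.8% to within 0.2, where 40% would be met by chance) ran from 28.3 M to 54.3 M fragments.

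Genes with at least 1 FPKM in at least 2 of the 32 libraries were tested on log2(FPKM + 1) with limma 3.58.1 (R 4.3.3), using 16 group means, 16 residual degrees of freedom, a mean-variance trend and Benjamini-Hochberg adjustment over all 16276 genes. On this scale the change of low genes is understated. The fit was tested on simulated data for WT day 6 against day 4 (16276 genes, 200 changed, 10 simulations). It recovered 92.4% of genes changed by 1 and 78% of those changed by 0.5, and 4.16% of calls were false. The simulated libraries were drawn independently from the means and spread of the fit itself. A false share near the threshold was thus built in, and the effect of technical duplicates was not tested. The rule for named genes took the 10 largest called rises and falls whose days did not overlap, and the 5 largest differences from KO in each direction, beside listed genes. Some genes that met it are not reported here. The members and gene lists were chosen with earlier results of these data known. Positions are from GENCODE M21 (GRCm38, the same assembly as mm10). Tables were handled in Python 3.11.15 with pandas 2.3.3, and figures drawn with matplotlib 3.10.9. The alternatives were another pseudocount, other filters, median-of-ratios rescaling, other sets of libraries, no trend, a replicate block and leaving out each library of the groups compared.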

Additional observations from a re-analysis of the deposited data

Results flagged for a closer look

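By limma's test of the difference between 2 changes, what WT did from day 4 to day 6 was unlike each other culture in 7808 genes against KO, 8468 genes against the fusion line with Dex and 7733 genes against the fusion line without Dex. The 3 tests share the WT libraries. For the genes named by rule, the WT change minus the KO change was 6.96 for Dlk1, 5.80 for Six6, 5.49 for Pax2 and 5.32 for Vax2, and -5.14 for Wfdc1, -4.68 for Insm1, -4.23 for Fzd10os, -4.00 for Vtn and -3.93 for Fzd10, each past the adjusted threshold in limma. The WT duplicates of Fzd10os were far apart at day 4, at 0.02 and 1.51 FPKM.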

How the results depend on the processing

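With a mean FPKM of at least 5 as the filter, which tests fewer genes, 7127 genes were called and 829 changed by at least 1. With a pseudocount of 0.1 in place of 1, 2990 genes changed by at least 1. Leaving out each WT library in turn gave 9870 to 10018 genes called and 1634 to 1693 that changed by at least 1. Leaving out each library of the cultures compared gave 6978 to 7211 genes for the difference from KO, 7800 to 7934 for the fusion line with Dex and 6897 to 7037 for the line without Dex. In these fits a group has 1 library, which is assumed to vary like the other groups. The replicate numbers did not pair the libraries, since the deviations of same-numbered WT libraries correlated at -0.00 (-0.09 to 0.13 over 120 pairs of groups). With the replicate block 10841 genes were called, 1630 changed by at least 1, and 7775, 8451 and 7683 differed from the 3 other cultures. In a fit of the compared groups alone the limma adjusted p was 0.000281 for Six6 and 0.000211 for Pim2. The much smaller values given above thus rest on the pooled spread. The other 69 counts stayed within 1.5 times the value reported. Rescaling moved the higher share of calls for the fusion line with Dex from 55.8% to 47.8% and for the line without Dex from 65.8% to 51.3%. The filter on a mean FPKM of at least 5 turned the list medians of neural crest (-0.917), FGF (-0.028) and neurogenesis (-2.006), because it leaves fewer members. It gave 1.891 for eye field, -1.906 for retinal neuron, 0.691 for surface ectoderm, 0.422 for basement membrane and 0.111 for DNA methylation. A pseudocount of 0.1 gave medians of 2.826 for pigment cell, -0.495 for retinal neuron, 0.831 for midbrain and hindbrain, 0.410 for neural crest, 0.714 for surface ectoderm, 0.417 for mesendoderm, 0.356 for FGF and 0.521 for neurogenesis. Rescaling divides day 6 by a larger factor (1.104) than day 4 (1.003), which shifts a change by -0.14, or by less where FPKM is low. By that construction it turned DNA replication (-0.079), Mettl3 (-0.044), Tbx3 (-0.055), Sox12 (-0.003), Sox2 (-0.026), Id3 (-0.066) and Fzd10os (-0.011), and moved the medians of mitosis (0.015), cyclins and CDK inhibitors (0.003), DNA methylation (0.217), FGF (0.147), m6A (0.112), Lin28 and let-7 (-0.181) and mitochondrially encoded genes (-0.216). Leaving out single libraries gave -0.198 to 0.286 for Tbx3 (-0.004 without the first day 6 library) and -0.609 to 0.690 for Fzd10os (-0.182 without the second day 6 library), with no call. Without single libraries the medians of neural crest (0.103), FGF (0.155), Lin28 and let-7 (-0.031) and immediate early genes (-0.043) moved by over 1.5 times. Tbx2 was called with a pseudocount of 0.1 (0.694), in the compared groups alone and without the trend (0.195), and Krt19 without the day 0 libraries (0.173). Of the gene-level values 2017 kept direction and side of the threshold. The 14 that lost the call were all of Irx5, Sox12, Sox2 and Cyp26a1, given above, and the 4 that gained it were those of Tbx2 and Krt19.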
